A study of Homo sapiens with 4 samples.

Results

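The transcriptome of PC3 cells after knockdown of DDX52 is described here through the 14262 genes that reached at least 1 TPM (a length-corrected share of all transcripts) in either PC3 library, out of 60671 genes listed. PC3 is an established human prostate carcinoma line derived from a bone metastasis. Both groups were PC3 cells made stable with puromycin after infection with a PLKO.1 lentivirus, which carried a short hairpin RNA against DDX52 (shDDX52) or a control hairpin (shCON). Each condition was 1 library, made with the TruSeq kit from 1 µg of total RNA, and only 1 hairpin was used against DDX52. Nothing here has a replicate check, and every difference compares these 2 libraries rather than the conditions. The series also holds an shCON and an shDDX52 library of 22RV1, another prostate carcinoma line, which are used below as context only.

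For each gene the log2 ratio was log2((shDDX52 TPM + 1)/(shCON TPM + 1)), so that a negative value means a lower share in the knockdown library. The pseudocount of 1 TPM understates the difference of genes with low values. Just inside the limit of 1 TPM were GGT7, with 1.0 and 0.9 TPM in shCON and shDDX52, and DOCK2, with 1.0 and 0.58 TPM. Just outside it were KRBA2, with 0.99 and 0.78 TPM, and GLTPD2, with 0.63 and 0.99 TPM.

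DDX52 encodes a DEAD-box RNA helicase. Its yeast counterpart acts in the small-subunit processome, the nucleolar particle in which the precursor of 18S ribosomal RNA is folded, cleaved and joined by the proteins of the 40S ribosomal subunit. Proteins of this machinery are made in every growing cell, and their genes are known as frequent targets of the transcription factor MYC. PC3 cells are known for an epithelial character mixed with basal, inflammatory and mesenchymal features, so that genes of adhesion, matrix and secretion make up a large part of what distinguishes this line.

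DDX52 (ENSG00000278053, chr17:37609739-37643464, minus strand, in GENCODE 29 on GRCh38) was 9.20 TPM in shCON and 2.07 TPM in shDDX52 (log2 ratio −1.73). The knockdown library thus held 22.5% of the control value. With a pseudocount of 5 TPM its log2 ratio was −1.01. Among nuclear protein-coding genes that reached 5 TPM in either PC3 library, DDX52 was the 22nd gene from the bottom by log2 ratio. The groups were set by the labelled hairpin, so this value serves as a check of the labels.

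The identity of the line was checked with markers. KLK2, KLK3, KLK4, FOLH1 and ACP3, secretory and surface products of luminal prostate cells, were all under 1 TPM in both PC3 libraries. Of 14 luminal genes 8 reached 1 TPM, among them the homeobox factor HOXB13 with 39.9 and 34.1 TPM (log2 ratio −0.22). All 14 genes chosen as known for PC3 reached it. The simple keratins KRT8, with 720.0 and 959.8 TPM in shCON and shDDX52, and KRT18, with 1199.5 and 1492 TPM, were high, as was the adhesion molecule EPCAM with 287 and 231 TPM. Of 8 neuroendocrine markers only ENO2, which is also a glycolytic enzyme, reached 1 TPM, and of 4 basal markers only KRT15 did. Few markers of other cell types were seen. COL1A1 was the one of 8 stromal genes above 1 TPM, with 8.65 and 7.84 TPM. CD14 was the one of 5 leukocyte genes, with 7.22 and 1.29 TPM. Of 4 endothelial genes, PECAM1 had 5.03 and 0.85 TPM and CDH5 had 0.61 and 1.98 TPM. Apart from the low values given, the stromal, leukocyte and endothelial markers were under 1 TPM in both libraries.

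The composition of the libraries differed. Genes annotated as ribosomal RNA held 0.0923% of the TPM in shCON and 3.13% in shDDX52, and 7SL RNA held 0.149% and 1.27%. The mitochondrial genome held 8.1% and 10.3%, and nuclear protein-coding genes held 88.4% and 81.3%. Of 26 small nucleolar RNA genes tested, 18 were at least 2-fold higher and 5 at least 2-fold lower in shDDX52, with a median log2 ratio of 2.78. Over all genes tested the shares were 2.86% higher and 3.44% lower. Small nuclear RNA genes had 16 of 32 at least 2-fold higher and 15 at least 2-fold lower. Genes annotated as miscellaneous RNA had 20 of 47 higher and 16 lower by as much. RMRP, the RNA of the ribonuclease MRP, was 50.8 TPM in shCON and 979 TPM in shDDX52 (log2 ratio 4.24). The copies of rRNA and 7SL RNA share nearly all their sequence, so values of single copies are uncertain. When TPM was recomputed over nuclear protein-coding genes alone, each of these genes gained 0.13 on the log2 scale before the pseudocount. Their median was −0.033 over 11945 genes as deposited and 0.087 over the 12166 that reached 1 TPM after rescaling. Log2 ratios of nuclear protein-coding genes that lie between −0.13 and 0 before the pseudocount therefore change sign with this scaling. List medians and counts of higher and lower members are given below as deposited and are to be read against all genes, with the median of −0.036 and the shares given next. Of 35 lists with a value under both scalings, the median turned sign in 5, which were DNA replication, ER chaperones, interferon-stimulated genes, nuclear pore genes and small nucleolar RNA host genes, the last with 1 protein-coding member left. The part of library composition or RNA quality in the differences was not tested.

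Of the 14262 genes, 490 (3.44%) had at most 0.5 times the control value in shDDX52 on this scale, and 408 (2.86%) had at least 2 times it. At 1.5-fold the numbers were 1404 lower (9.84%) and 1276 higher (8.95%). By any size, 7634 genes (53.5%) were lower and 6610 (46.3%) higher. Among nuclear protein-coding genes as deposited, 207 were 2-fold lower and 171 higher, a share of 54.8% lower. With TPM recomputed over these genes the numbers were 169 and 274, a share of 38.1% lower, so that the balance between the directions turned with the scaling. Changes of 2-fold were most frequent outside protein-coding genes. Antisense transcripts had 87 of 713 genes lower and 43 higher, whereas protein-coding genes had 207 of 11958 lower and 172 higher when those of the mitochondrial genome are included. Reads from an antisense gene and its partner cannot be told apart where counting ignores strand, and the sources used here do not state it. Within nuclear protein-coding genes, 2-fold changes were more frequent at low levels. In the lowest decile of mean TPM 3.18% were lower and 3.27% higher, and in the highest 1.09% and 0.419%. The part of level in the difference between gene types was not tested.

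**Figure D1:**
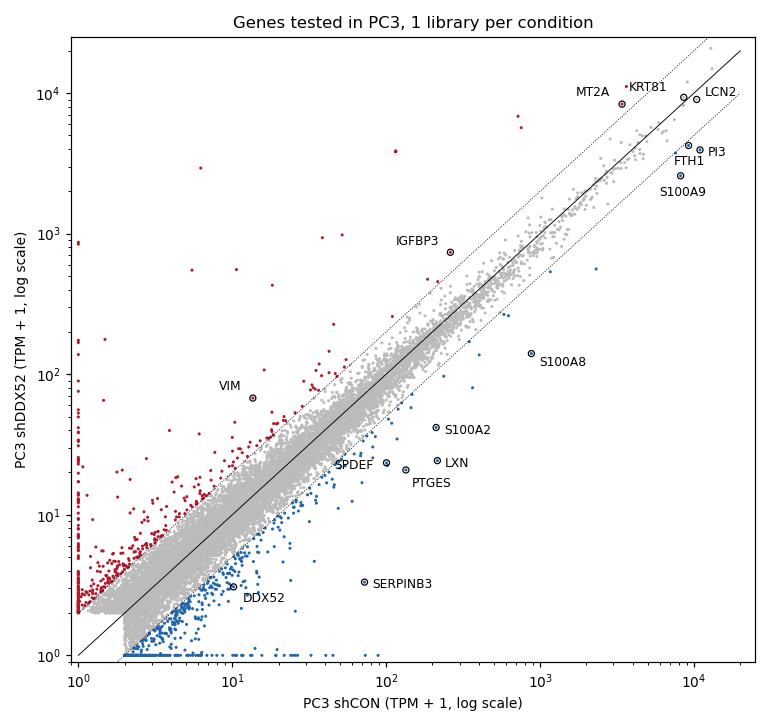
TPM + 1 of the 14262 genes tested in the PC3 shCON library (x axis) and the PC3 shDDX52 library (y axis), both on log scales, with 1 library per condition. The solid line marks equal values, the dotted lines 2-fold differences, blue points the 490 genes at least 2-fold lower, red points the 408 genes at least 2-fold higher, and DDX52 with 9.20 and 2.07 TPM lies among the blue points.

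At 5 TPM or more in either library, the protein-coding gene furthest down was SERPINB3 (chr18:63655197-63661963), an inhibitor of cysteine proteases in squamous epithelium. It was 71.4 TPM in shCON and 2.32 TPM in shDDX52 (log2 ratio −4.45). Its neighbour SERPINB4 was 24.7 TPM in shCON and 1.06 TPM in shDDX52 (log2 ratio −3.64), and because both genes are nearly identical, reads could have been split between them. MUC5B and MUC6, also among the 15 genes furthest down, encode gel-forming mucins. MUC5B was 13.1 TPM in shCON and 0.12 TPM in shDDX52 (log2 ratio −3.65) and MUC6 was 13.7 TPM in shCON and 2.20 TPM in shDDX52 (log2 ratio −2.19). SPDEF, an ETS transcription factor of secretory epithelium, was 99.5 TPM in shCON and 22.4 TPM in shDDX52 (log2 ratio −2.10). All 5 of these genes were thus far past 2-fold.

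Others of the 15 genes furthest down encode proteins of different kinds. LXN (latexin), an inhibitor of carboxypeptidases, was 214 TPM in shCON and 23.3 TPM in shDDX52 (log2 ratio −3.15). PTGES, which makes prostaglandin E2, was 133 TPM in shCON and 19.9 TPM in shDDX52 (log2 ratio −2.69). NOX5, a calcium-activated NADPH oxidase, was 101 TPM in shCON and 21.5 TPM in shDDX52 (log2 ratio −2.18). The transcription elongation factor TCEA1 was lower too, with 59.1 TPM in shCON and 11.5 TPM in shDDX52 (log2 ratio −2.27). AKR1B10, a reductase of retinal and lipid aldehydes, was 13.97 TPM in shCON and 2.61 TPM in shDDX52 (log2 ratio −2.05). The remaining genes of the 15 furthest down were ZNF124, a zinc finger gene with a log2 ratio of −2.87, the unnamed gene ENSG00000267314 with −3.96, BOLA2 with −2.14, S100A8 and S100A2. BOLA2 has a near-identical copy, so its value is uncertain, and both S100 genes are described with their family below.

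Of the 15 genes furthest up, VIM and MYLK act in the cytoskeleton. VIM (chr10:17228259-17237593), the intermediate filament of mesenchymal cells, was 12.6 TPM in shCON and 66.7 TPM in shDDX52 (log2 ratio 2.31). MYLK, the kinase that activates smooth muscle and non-muscle myosin II, was 3.42 TPM in shCON and 17.6 TPM in shDDX52 (log2 ratio 2.08). Both genes were at least 4-fold higher on the log2 scale used.

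Others of the 15 furthest up encode proteins of different kinds. GPR176, an orphan G protein-coupled receptor, was 9.39 TPM in shCON and 44.5 TPM in shDDX52 (log2 ratio 2.13). The cytokine IL24 was 3.30 TPM in shCON and 17.4 TPM in shDDX52 (log2 ratio 2.10). GJA5, the gap junction protein connexin 40, was 1.29 TPM in shCON and 10.03 TPM in shDDX52 (log2 ratio 2.27). TENM2, a teneurin of the cell surface, was 2.27 TPM in shCON and 12.1 TPM in shDDX52 (log2 ratio 2.0), and VGLL1, a cofactor of the TEAD transcription factors, was 2.05 TPM in shCON and 11.1 TPM in shDDX52 (log2 ratio 1.99). The hair keratin KRT34 had a log2 ratio of 2.07 and FNDC3A of 1.85. TRIM66, which encodes a chromatin reader, had the largest value of the 15 with 1.17 TPM in shCON and 16.8 TPM in shDDX52 (log2 ratio 3.04). Values of USP41 (log2 ratio 2.64) and of the read-through gene RBM14-RBM4 (2.62) are uncertain, since their reads can be shared with a near copy or an overlapping gene.

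Some of these genes are hardly expressed in 22RV1. Of 8966 nuclear protein-coding genes that reached 5 TPM in PC3, 448 (5.0%) were under 1 TPM in both 22RV1 libraries. Of the 15 genes furthest down 9 were, and of the 15 furthest up 7 were. Of the 8966 genes, 141 lay at least 2-fold below the control and 104 at least 2-fold above it, and of these 53 and 37 were under 1 TPM in both 22RV1 libraries.

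The 5 largest losses and 5 largest gains in TPM were taken among nuclear protein-coding genes. Of the losses, PI3 (elafin), an elastase inhibitor of epithelia, was 10951 TPM in shCON and 3942 TPM in shDDX52 (log2 ratio −1.47). S100A9, a calcium-binding alarmin, was 8195 TPM in shCON and 2581 TPM in shDDX52 (log2 ratio −1.67). FTH1, the heavy chain of ferritin, was 9232 TPM in shCON and 4241 TPM in shDDX52 (log2 ratio −1.12), and S100A6 was 7598 TPM in shCON and 3747 TPM in shDDX52 (log2 ratio −1.02). LCN2 (lipocalin 2), which binds bacterial siderophores, was 10421 TPM in shCON and 9017 TPM in shDDX52 (log2 ratio −0.21). The largest gain among these genes was that of MT2A (chr16:56608199-56609497), a metallothionein that binds zinc and copper, with 3411 TPM in shCON and 8356 TPM in shDDX52 (log2 ratio 1.29). The other gains were those of the cytoskeletal actins ACTG1, with 2478 TPM in shCON and 3429 TPM in shDDX52 (log2 ratio 0.47), and ACTB, with 4454 TPM in shCON and 5058 TPM in shDDX52 (log2 ratio 0.18), of the hair keratin KRT81, with 8589 TPM in shCON and 9338 TPM in shDDX52 (log2 ratio 0.12), and of IGFBP3. IGFBP3, a secreted binding protein for insulin-like growth factors, was 261 TPM in shCON and 736 TPM in shDDX52 (log2 ratio 1.49). Of these 10 genes, 6 were past 2-fold, and LCN2, ACTG1, KRT81 and ACTB were not. With TPM over nuclear protein-coding genes FTH1 was at −0.99 and S100A6 at −0.89, so that both fell short of 2-fold.

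Long noncoding RNA genes at 5 TPM or more differed as well. The furthest down were LINC03033, with 22.7 TPM in shCON and 4.78 TPM in shDDX52 (log2 ratio −2.04), SMG1-DT, with a log2 ratio of −2.03, LINC02015, with −1.96, SNHG25, with −1.86, and RCC2-AS1, with −1.84. The furthest up were LINC01943, with 0.93 TPM in shCON and 19.8 TPM in shDDX52 (log2 ratio 3.43), COQ7-DT, which was listed at 0 in shCON and at 6.02 TPM in shDDX52, LINC01547, with a log2 ratio of 1.98, BCAN-AS2, with 1.79, and HOXB-AS3, with 1.57.

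Genes were next grouped into 36 lists by function. Of their medians, 22 lay above the median of all genes tested and 14 below it. At a distance of at least 0.1 on the log2 scale, 17 were above and 9 below. In what follows a list median is the median log2 ratio of its members at 1 TPM or more, and the values of a gene are given with shCON first. The lists differ in size, a median over few members is less certain, and some genes, such as S100A4, are on more than 1 list.

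**Figure D2:**
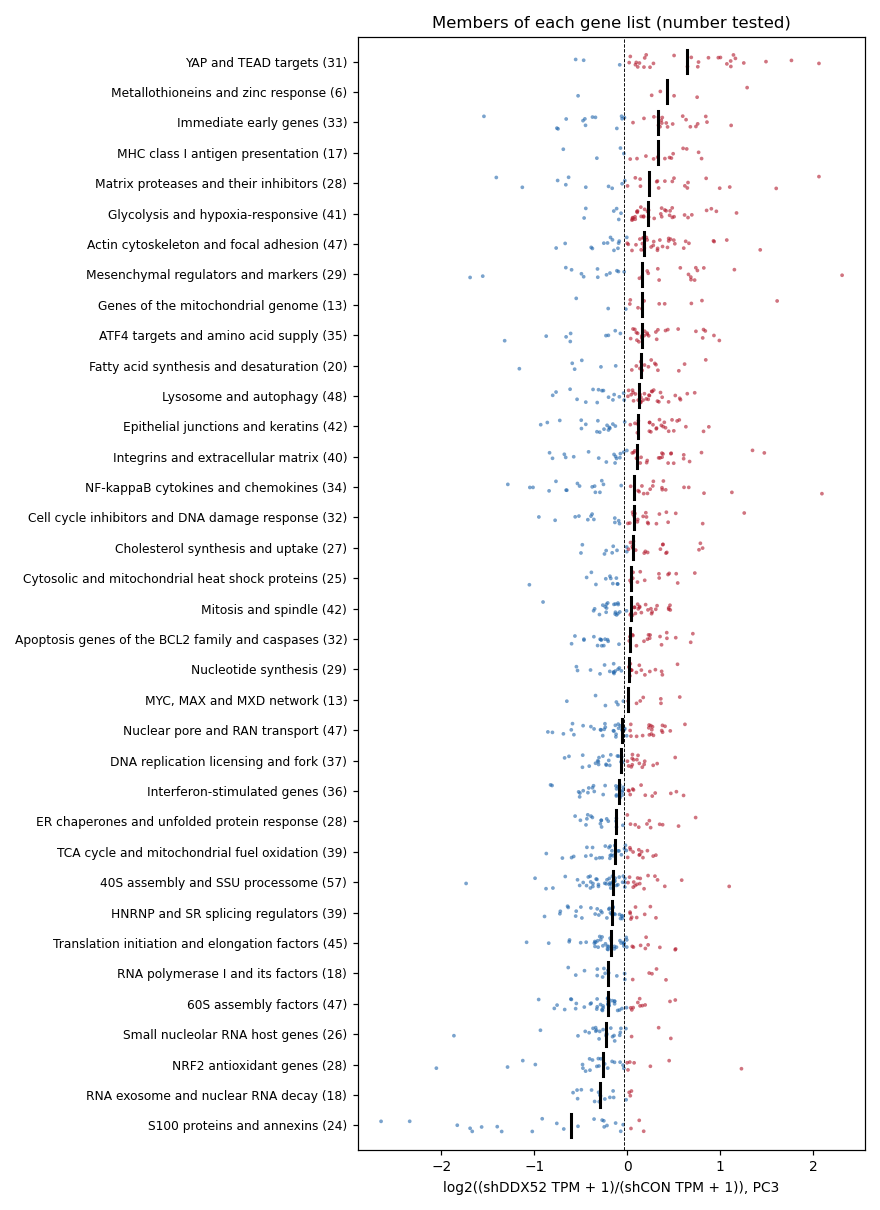
Log2 ratio (shDDX52 against shCON, PC3) of each tested member of the 36 gene lists, sorted by list median, with the number of members tested in parentheses. Points are genes (blue below 0, red above), thick bars are list medians, and the dashed line is the median of all genes tested at −0.036. YAP and TEAD targets lie at the top with a median of 0.65 and S100 proteins and annexins at the bottom with −0.60.

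The list furthest above all genes was that of YAP and TEAD targets. YAP1 and WWTR1 (TAZ) are cofactors that the Hippo kinases keep out of the nucleus, and that act with the TEAD factors on genes of growth, adhesion and matrix when cells spread on a stiff substrate. All 31 genes of the list reached 1 TPM, 28 were higher in shDDX52, 16 at least 1.5-fold and 10 at least 2-fold, against 8.95% and 2.86% of all genes. The list median was 0.65, which is 0.69 above all genes (0.45 with a pseudocount of 5 TPM), and the summed TPM was 1094 in shCON and 2054 in shDDX52.

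Secreted and surface products were among the members with the largest differences. IGFBP3 has been given above. CCN1, a matricellular protein and a classic readout of YAP, was 215 TPM in shCON and 455 TPM in shDDX52 (log2 ratio 1.07), and its relative CCN2 was 18.2 TPM in shCON and 30 TPM in shDDX52 (log2 ratio 0.69). The receptor tyrosine kinase AXL was 32.6 TPM in shCON and 79.3 TPM in shDDX52 (log2 ratio 1.26). ANKRD1, a nuclear ankyrin repeat protein induced by stretch, was 16.8 TPM in shCON and 34.7 TPM in shDDX52 (log2 ratio 1.01). Negative regulators that are themselves targets were higher too. DLC1, a GTPase-activating protein for RHOA, was 1.82 TPM in shCON and 8.61 TPM in shDDX52 (log2 ratio 1.77), the Hippo kinase LATS2 was 2.61 TPM in shCON and 6.82 TPM in shDDX52 (log2 ratio 1.12) and the scaffold AMOTL1 was 8.81 TPM in shCON and 18.4 TPM in shDDX52 (log2 ratio 0.98).

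The factors themselves differed less, apart from TEAD1, which is itself on the list and counted among its higher members. YAP1 was 14.5 TPM in shCON and 16.7 TPM in shDDX52 (log2 ratio 0.19) and WWTR1 was 33.1 TPM in shCON and 33.7 TPM in shDDX52 (log2 ratio 0.024). Of the TEAD genes, TEAD1 was 3.54 TPM in shCON and 9.19 TPM in shDDX52 (log2 ratio 1.17), whereas TEAD2, TEAD3 and TEAD4 had log2 ratios of −0.079, 0.25 and 0.035. Lower values were seen in CCN5, a relative of CCN2 with 1.01 and 0.37 TPM, and in TGFBR2, a receptor of transforming growth factor beta with 27.4 and 19.6 TPM (log2 ratio −0.47). In 22RV1, 20 members reached 1 TPM and the list median was −0.03.

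**Figure D3:**
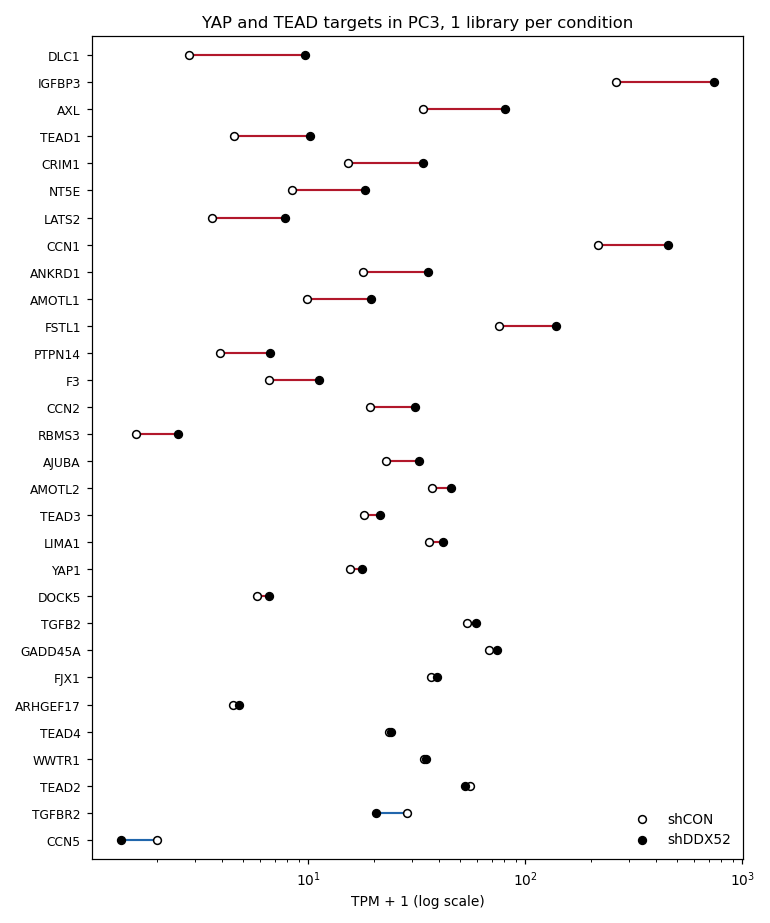
TPM + 1 (log scale) of 30 of the YAP and TEAD targets in the PC3 shCON library (open circles) and the PC3 shDDX52 library (filled circles), 1 library each, sorted by log2 ratio. Red lines mark the 27 genes that were higher in shDDX52 and blue lines the 3 that were lower, from DLC1 with 1.82 and 8.61 TPM at the top to CCN5 at the bottom.

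The letters bound by TEAD factors, GGAATG or its complement CATTCC, were searched in RefSeq promoters of GRCh38.p14, which run from 250 bases before to 50 bases after the start of a gene. They were present in 14% of the 27305 promoters, in 1013 of the 9608 of tested protein-coding genes, in 17.2% of those of protein-coding genes past 2-fold upwards and in 12.9% of those past 2-fold downwards. Of the 21 YAP and TEAD targets with a promoter in the table, 6 (28.6%) held them. These 6 had a median log2 ratio of 0.73 and the other 15 a median of 0.51. Such a match is a description of letters and not of a bound site. Most members at least 1.5-fold higher with a promoter in the table, such as IGFBP3, AXL, LATS2 and AMOTL1, held no match before the start. Those that held a match there were CCN2, ANKRD1 and PTPN14, a phosphatase that binds YAP1. Their stretches are shown because these members were higher together with the list, with matches in capitals and each written in the direction of its gene, at chr6:131951422-131951507, chr10:90921170-90921255 and chr1:214551757-214551842, all on the minus strand.
CCN2: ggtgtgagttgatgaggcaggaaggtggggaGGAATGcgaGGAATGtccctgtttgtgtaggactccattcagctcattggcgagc
ANKRD1: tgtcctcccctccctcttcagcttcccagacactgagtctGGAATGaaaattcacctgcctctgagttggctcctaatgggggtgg
PTPN14: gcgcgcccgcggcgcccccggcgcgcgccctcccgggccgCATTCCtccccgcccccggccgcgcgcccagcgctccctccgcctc
In CCN2 the match nearest the start begins 95 bases before it and 2 of its 3 matches fall in the stretch. ANKRD1 has 2 matches before the start, of which the match shown begins 128 bases before it. In PTPN14 the single match begins 200 bases before the start. PTPN14 was 2.89 TPM in shCON and 5.63 TPM in shDDX52 (log2 ratio 0.77).

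S100 proteins and annexins formed the list furthest below all genes. Both families bind calcium, and several S100 proteins are released as alarmins by epithelium and myeloid cells, while annexins bind membranes. Of 26 genes, 24 reached 1 TPM, 21 were lower, 12 at least 1.5-fold and 9 at least 2-fold, against 9.84% and 3.44% of all genes tested, and none was 1.5-fold higher. The median was −0.60, and the summed TPM was 25042 in shCON and 13242 in shDDX52. The largest differences were those of S100 proteins. S100A8, the partner of S100A9 in calprotectin, was 878 TPM in shCON and 139 TPM in shDDX52 (log2 ratio −2.65). S100A2, an S100 protein of basal epithelium, was 210.4 TPM in shCON and 40.8 TPM in shDDX52 (log2 ratio −2.34). S100A4, which binds non-muscle myosin, was 80.9 TPM in shCON and 24.4 TPM in shDDX52 (log2 ratio −1.69), and S100P was 30.7 TPM in shCON and 7.94 TPM in shDDX52 (log2 ratio −1.83). The abundant S100A10 and S100A11 differed less, with log2 ratios of −0.22 and −0.27. Of the annexins, ANXA2 was 1009.8 and 1039.5 TPM (log2 ratio 0.042) and ANXA5 156 and 177 TPM (log2 ratio 0.18), and the furthest down was ANXA1 with 137 and 94.3 TPM (log2 ratio −0.53). In 22RV1, 13 members reached 1 TPM and the median was −0.12.

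All tested S100 genes of this list except S100P lie close together on chromosome 1. GENCODE 29 has 15 S100 genes at 1 TPM or more between S100A10 and S100A1, at chr1:151982915-153632039, counting S100A12, which is not on the list. All 15 were lower in shDDX52, 9 of them at least 2-fold, with a median log2 ratio of −1.33 and a range from −2.65 to −0.22. S100A3 and S100A4 overlap, as do S100A13 and S100A1, so their reads may have been shared. Of the 49 other protein-coding genes of this interval only SPRR2D, a cornified envelope protein, reached 1 TPM, with 0.45 TPM in shCON and 3.30 TPM in shDDX52 (log2 ratio 1.57). In the 500000 bases on either side 23 protein-coding genes were tested, of which 14 were lower, 9 higher and 0 at least 2-fold lower, with a median of −0.08.

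**Figure D4:**
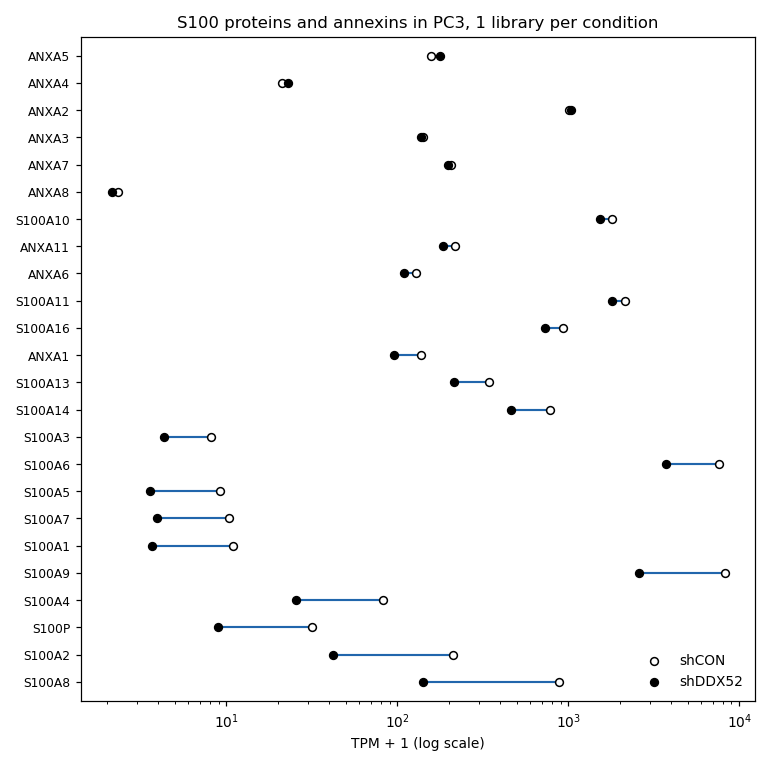
TPM + 1 (log scale) of the 24 tested S100 and annexin genes in the PC3 shCON library (open circles) and the PC3 shDDX52 library (filled circles), 1 library each, sorted by log2 ratio. The 21 genes that were lower in shDDX52 have blue lines, and S100A8 at the bottom goes from 878 to 139 TPM.

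Other lists of adhesion and shape lay above all genes by smaller distances. Of 47 genes of the actin cytoskeleton and focal adhesions, 34 were higher and 7 at least 1.5-fold higher, against 46.3% and 8.95% of all genes, and the median was 0.18. MYH9, the heavy chain of non-muscle myosin IIA, was 156 TPM in shCON and 300.4 TPM in shDDX52 (log2 ratio 0.94). Calponin 3 (CNN3) was 52.5 TPM in shCON and 112 TPM in shDDX52 (log2 ratio 1.07), caldesmon (CALD1) was 14.4 TPM in shCON and 28.3 TPM in shDDX52 (log2 ratio 0.93) and talin 2 (TLN2) was 3.87 TPM in shCON and 12.2 TPM in shDDX52 (log2 ratio 1.43). TMSB4X, which sequesters actin monomers, differed the other way with 2757 TPM in shCON and 1624 TPM in shDDX52 (log2 ratio −0.76), as did the adhesion protein zyxin (ZYX) with 209.8 and 162 TPM (log2 ratio −0.37).

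Integrins and matrix proteins had a median of 0.11, with 24 of 40 tested members higher. The median was 0.14 above all genes, and 0.077 when centred on genes of like length and GC. The matricellular proteins TGFBI, with 4.67 TPM in shCON and 14.8 TPM in shDDX52 (log2 ratio 1.48), and THBS1, with 185 TPM in shCON and 473 TPM in shDDX52 (log2 ratio 1.35), were more than 2-fold higher. Basement membrane genes went both ways. The collagen IV chains COL4A1 and COL4A2 had log2 ratios of 0.61 and 0.67, and the laminin chain LAMA5 had −0.67. Fibronectin (FN1) was 154 TPM in shCON and 116 TPM in shDDX52 (log2 ratio −0.41), and its receptor subunit ITGA5 was 33.6 and 22.3 TPM (log2 ratio −0.57).

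Proteases of the matrix and their inhibitors had a median of 0.23, and 28 of 36 genes were tested, with 18 higher. The median was 0.27 above all genes, and 0.16 without a filter. The surface proteases ADAM10, with 8.38 and 17.7 TPM (log2 ratio 1.0), and MMP14, with 34.6 and 53.8 TPM (log2 ratio 0.62), were higher. TIMP1, an inhibitor of matrix metalloproteases, was 582 TPM in shCON and 266 TPM in shDDX52 (log2 ratio −1.13), and SERPINE2 was 10.6 TPM in shCON and 3.37 TPM in shDDX52 (log2 ratio −1.41). The urokinase gene PLAU, the most abundant of the list, was 745 and 824 TPM (log2 ratio 0.14). In 22RV1 the list median was −0.19.

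Epithelial and mesenchymal genes did not separate by direction. Epithelial junction genes and keratins had a median of 0.12, with 25 of 42 higher, and mesenchymal regulators and markers a median of 0.16, with 16 of 29 higher. The mesenchymal median was 0.20 above all genes, and 0.071 at 5 TPM or more. Of the epithelial genes, desmoplakin (DSP) was 19.3 TPM in shCON and 34.9 TPM in shDDX52 (log2 ratio 0.82). Keratins went both ways. KRT17 was 5.01 TPM in shCON and 10.1 TPM in shDDX52 (log2 ratio 0.88). KRT15, with 33.3 TPM in shCON and 17.01 TPM in shDDX52 (log2 ratio −0.93), and KRT6A, with 10.9 TPM in shCON and 5.55 TPM in shDDX52 (log2 ratio −0.86), were lower. E-cadherin (CDH1) was 60.05 TPM in shCON and 75.1 TPM in shDDX52 (log2 ratio 0.32). Of the mesenchymal genes, VIM and N-cadherin (CDH2), with 6.81 TPM in shCON and 12.8 TPM in shDDX52 (log2 ratio 0.83), were higher, and S100A4 and ID1, an inhibitor of basic helix-loop-helix factors with 402 TPM in shCON and 136 TPM in shDDX52 (log2 ratio −1.55), were lower.

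Ribosome assembly, the process DDX52 belongs to, lay slightly below all genes. Of 57 genes of 40S assembly and the small-subunit processome, 41 (71.9%) were lower, against 53.5% of all genes, and the median was −0.16. DDX52, the target of the hairpin, is a member and is counted among the 41. With TPM over nuclear protein-coding genes, 33 of 57 were lower with a median of −0.03, against 4906 of 12166 genes and a median of 0.087. As deposited, 5 were at least 1.5-fold lower, DDX52 among them, and 2 at least 1.5-fold higher, against 9.84% and 8.95% of all genes. UTP6, a processome subunit, was 27.4 TPM in shCON and 13.3 TPM in shDDX52 (log2 ratio −0.99). RIOK2, a kinase of late 40S maturation, was 9.01 TPM in shCON and 4.47 TPM in shDDX52 (log2 ratio −0.87), and MPHOSPH10 was 18.4 TPM in shCON and 10.2 TPM in shDDX52 (log2 ratio −0.80). WDR3, also of the processome, was 5.38 TPM in shCON and 12.7 TPM in shDDX52 (log2 ratio 1.10), and the 18S rRNA methyltransferase DIMT1 was 29.3 TPM in shCON and 44.5 TPM in shDDX52 (log2 ratio 0.59). The methyltransferase fibrillarin (FBL), the most abundant member, was 499 and 471 TPM, a log2 ratio of −0.084 whose sign depends on the scaling.

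Assembly factors of the 60S subunit had a median of −0.20, with 37 of 47 lower and 6 at least 1.5-fold lower, against 53.5% and 9.84% of all genes. Examples were the GTPases GNL2, with 52.2 TPM in shCON and 26.5 TPM in shDDX52 (log2 ratio −0.95), and GTPBP4, with 50.2 TPM in shCON and 28.8 TPM in shDDX52 (log2 ratio −0.78), and BRIX1, with 48.4 and 28.3 TPM (log2 ratio −0.75). The methyltransferase NOP2 was 17.5 TPM in shCON and 24.5 TPM in shDDX52 (log2 ratio 0.46). RNA polymerase I and its factors had a median of −0.20 with 13 of 18 lower. Nucleolin (NCL) was 586 TPM in shCON and 377 TPM in shDDX52 (log2 ratio −0.63), and the largest polymerase subunit POLR1A was 9.27 TPM in shCON and 12.7 TPM in shDDX52 (log2 ratio 0.42). The RNA exosome and nuclear decay factors had a median of −0.29, and 15 of 18 were lower, although none was past 1.5-fold. EXOSC3 was 57.9 and 40.9 TPM (log2 ratio −0.49) and EXOSC4 259.6 and 199 TPM (log2 ratio −0.38), while XRN2, a 5′ to 3′ exonuclease, was 31.4 and 32.5 TPM (log2 ratio 0.047).

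The E-box letters CACGTG, to which MYC and MAX bind, were present in 20 of the 47 promoters of 40S genes in the table (42.6%). They were in 7.43% of all promoters and in 10.1% of those of tested protein-coding genes. The 20 genes with a match had a median log2 ratio of −0.13 and the 27 without one a median of −0.17. MYC itself was 192 TPM in shCON and 122 TPM in shDDX52 (log2 ratio −0.65). The network of MYC, MAX and MXD genes had a median of 0.012, with 6 of 13 lower, and MAX was 66.5 and 73.5 TPM (log2 ratio 0.14). MLXIP, a glucose-responsive relative of MYC, was 12.2 and 18.6 TPM (log2 ratio 0.57), and MXI1, an antagonist of MYC, was 8.46 and 11.2 TPM (log2 ratio 0.36).

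Lists of RNA processing and translation also had medians below that of all genes. Splicing regulators of the HNRNP and SR families had a median of −0.17, with 30 of 39 lower. SRRM2, a scaffold of nuclear speckles, was 220.2 TPM in shCON and 118 TPM in shDDX52 (log2 ratio −0.89), and SRSF5 and SRSF6 were 368 and 236 TPM (log2 ratio −0.64) and 49.5 and 29.7 TPM (log2 ratio −0.72). HNRNPUL1 was 98.04 and 122 TPM (log2 ratio 0.31). Translation factors had a median of −0.17, with 36 of 45 lower. EIF5B, which joins the ribosomal subunits, was 41.5 TPM in shCON and 19.1 TPM in shDDX52 (log2 ratio −1.08) and the eIF3 subunit EIF3E 248 TPM in shCON and 138 TPM in shDDX52 (log2 ratio −0.84), while the subunit EIF3F was 429 TPM in shCON and 615 TPM in shDDX52 (log2 ratio 0.52). Small nucleolar RNA host genes, whose introns carry guide RNAs for ribosomal RNA, had a median of −0.22, and 23 of 26 were lower. SNHG20 was 14.4 and 7.09 TPM (log2 ratio −0.93) and SNHG8 75.4 and 54.9 TPM (log2 ratio −0.45). Nuclear pore and RAN transport genes had a median of −0.057, with 28 of 47 lower. In TPM over nuclear protein-coding genes the median was 0.072 with 19 of 47 lower, against 0.087 and 4906 of 12166 for all nuclear protein-coding genes. The transport GTPase RAN was 1224 TPM in shCON and 678 TPM in shDDX52 (log2 ratio −0.85) and its partner RANBP1 743 TPM in shCON and 495 TPM in shDDX52 (log2 ratio −0.59), while NUP210 was 44.2 and 68.6 TPM (log2 ratio 0.62).

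Genes of proliferation stayed close to the median of all genes. Replication genes had a median of −0.065, with 21 of 37 lower, and mitotic genes a median of 0.038, with 20 of 42 lower. In TPM over nuclear protein-coding genes 16 and 12 were lower, against 4906 of 12166 for all nuclear protein-coding genes. PCNA, the sliding clamp, was 309 and 274 TPM (log2 ratio −0.17). POLE2, a subunit of DNA polymerase epsilon, was 23.6 and 14.4 TPM (log2 ratio −0.67) and GINS4 15.7 and 22.96 TPM (log2 ratio 0.52). Of the mitotic genes, the kinetochore gene CENPF was 32.9 TPM in shCON and 17.1 TPM in shDDX52 (log2 ratio −0.90), whereas UBE2C, the most abundant, was 464 and 484 TPM. Enzymes of nucleotide synthesis had a median of 0.019, with 15 of 29 higher and none past 1.5-fold. RRM2, a subunit of ribonucleotide reductase, was 75.5 and 110.4 TPM (log2 ratio 0.54).

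Cell cycle inhibitors and DNA damage response genes had a median of 0.071, and 20 of 32 were higher. CDKN1A (p21), an inhibitor of cyclin-dependent kinases, was 31.2 TPM in shCON and 76.3 TPM in shDDX52 (log2 ratio 1.26) and was the one member past 2-fold. SESN2, a stress-induced inhibitor of mTORC1, was 2.93 and 5.91 TPM (log2 ratio 0.81). Some other members were lower. MDM2 was 11.03 and 7.40 TPM (log2 ratio −0.52) and PHLDA3 85.2 and 49.4 TPM (log2 ratio −0.77). Among genes of the BCL2 family and caspases the median was 0.027, with 17 of 32 higher. BMF, a BH3-only protein, was 3.04 and 5.60 TPM (log2 ratio 0.71), PMAIP1 (NOXA) was 6.83 and 10.3 TPM (log2 ratio 0.52) and cytochrome c (CYCS) was 124 and 81.5 TPM (log2 ratio −0.60).

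Glycolytic and hypoxia-responsive genes were mostly higher. Of 41 genes, all tested, 35 were higher and 7 at least 1.5-fold higher, against 46.3% and 8.95% of all genes, with a median of 0.22. The vasodilator peptide adrenomedullin (ADM) was 33.6 TPM in shCON and 77.3 TPM in shDDX52 (log2 ratio 1.18), NDRG1 was 193 TPM in shCON and 376 TPM in shDDX52 (log2 ratio 0.96), and the HIF prolyl hydroxylase EGLN3 was 6.34 TPM in shCON and 12.8 TPM in shDDX52 (log2 ratio 0.91). Among enzymes, ENO2 was 20.96 and 38.7 TPM (log2 ratio 0.86), while the abundant GAPDH and ENO1 were 4612 and 4977 TPM and 2591 and 3044 TPM. HIF1A, the oxygen-sensitive factor of this response, was 63.4 TPM in shCON and 46.3 TPM in shDDX52 (log2 ratio −0.44), and the lactate exporter SLC16A3 was 454 TPM in shCON and 329 TPM in shDDX52 (log2 ratio −0.46). In 22RV1 the median of this list was −0.19.

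Targets of ATF4, the factor of amino acid shortage, had a median of 0.16, and 26 of 35 were higher. ATF4 was 345 and 392 TPM (log2 ratio 0.18). DDIT4, an inhibitor of mTORC1, was 57.4 TPM in shCON and 115 TPM in shDDX52 (log2 ratio 0.99), the secreted glycoprotein STC2 was 163 TPM in shCON and 313 TPM in shDDX52 (log2 ratio 0.94), and the arginine transporter SLC7A1 was 11.2 TPM in shCON and 20.8 TPM in shDDX52 (log2 ratio 0.84). Other known targets were lower, among them the cytokine GDF15, with 43.6 TPM in shCON and 16.9 TPM in shDDX52 (log2 ratio −1.32), and MTHFD2, a mitochondrial folate enzyme with 57.99 TPM in shCON and 37.6 TPM in shDDX52 (log2 ratio −0.61). The letters TGATGNAA of the amino acid response element were found in 7 of 31 promoters of the list (22.6%). They were in 3.67% of all promoters and in 1.61% of those of tested protein-coding genes. The 7 genes with a match had a median log2 ratio of 0.22 and the 24 others 0.17. ER chaperones and genes of the unfolded protein response had a median of −0.12, with 17 of 28 lower. In TPM over nuclear protein-coding genes 13 of 28 were lower, against 4906 of 12166 for all nuclear protein-coding genes. DNAJB11 was 117 and 82.2 TPM (log2 ratio −0.50), P4HB 529.7 and 409 TPM (log2 ratio −0.37) and HERPUD1 29.8 and 44.2 TPM (log2 ratio 0.55). Heat shock proteins of cytosol and mitochondria had a median of 0.045, with 14 of 25 higher. HSPA4 was 50.4 TPM in shCON and 23.8 TPM in shDDX52 (log2 ratio −1.05) and DNAJB6 109 and 181 TPM (log2 ratio 0.73).

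Lipid synthesis showed mixed directions. Cholesterol synthesis and uptake had a median of 0.067, with 18 of 27 higher, and HMGCS1 and INSIG1, both known targets of SREBF2, were 10.9 and 19.9 TPM (log2 ratio 0.81) and 10.6 and 19.01 TPM (log2 ratio 0.79). SREBF2 was 38.4 and 44.9 TPM (log2 ratio 0.22). Fatty acid synthesis had a median of 0.15, with 14 of 20 higher. The median was 0.19 above all genes, and 0.11 when centred on genes of like length and GC. ACLY, which makes cytosolic acetyl-CoA, was 49.5 TPM in shCON and 89.8 TPM in shDDX52 (log2 ratio 0.85), and the desaturase SCD was 56.5 TPM in shCON and 83.6 TPM in shDDX52 (log2 ratio 0.56). SREBF1 was 49.9 TPM in shCON and 32.8 TPM in shDDX52 (log2 ratio −0.59) and the elongase ELOVL6 5.52 TPM in shCON and 1.92 TPM in shDDX52 (log2 ratio −1.16).

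Fuel oxidation in mitochondria lay slightly below all genes, with a median of −0.13 for the TCA cycle list and 27 of 39 lower. Pyruvate carboxylase (PC) was 12.4 TPM in shCON and 6.33 TPM in shDDX52 (log2 ratio −0.87), PDHA1, a subunit of pyruvate dehydrogenase, was 227 TPM in shCON and 139.6 TPM in shDDX52 (log2 ratio −0.70), and the succinate dehydrogenase subunit SDHB was 198 TPM in shCON and 133 TPM in shDDX52 (log2 ratio −0.57). Citrate synthase (CS) was 149 and 174 TPM (log2 ratio 0.22). The 13 genes of the mitochondrial genome had a median of 0.16, with 10 higher. MT-ND4L, whose end overlaps MT-ND4, was 3637 TPM in shCON and 11145 TPM in shDDX52 (log2 ratio 1.62), MT-ND5 was 1026 TPM in shCON and 1795 TPM in shDDX52 (log2 ratio 0.81) and MT-CO3 was 6691 TPM in shCON and 4579.9 TPM in shDDX52 (log2 ratio −0.55).

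NRF2 antioxidant genes had a median of −0.26, and 21 of 28 were lower. NFE2L2, which encodes NRF2, was 21.9 and 15.8 TPM (log2 ratio −0.45), and its inhibitor KEAP1 was 103 and 73.8 TPM (log2 ratio −0.48). The list sum was 13471 TPM in shCON and 7963 TPM in shDDX52, and FTH1 held most of the difference. The quinone reductase NQO1 was 161 and 116 TPM (log2 ratio −0.47). TXNRD1 (thioredoxin reductase 1) differed the other way with 109 TPM in shCON and 257 TPM in shDDX52 (log2 ratio 1.23). Metallothioneins and zinc genes had a median of 0.43 over 6 of 13 genes. Beside MT2A, MT1X was 137 TPM in shCON and 231 TPM in shDDX52 (log2 ratio 0.75) and MT1F 13.98 TPM in shCON and 20.3 TPM in shDDX52 (log2 ratio 0.51). Metallothionein genes are similar in sequence, so the split between them is uncertain. In 22RV1, the median over 9 genes was −0.26.

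Inflammatory genes went both ways. Targets of NF-kappaB had a median of 0.079, with 18 of 34 tested genes higher, 5 at least 1.5-fold higher and 7 at least 1.5-fold lower, against 46.3%, 8.95% and 9.84% of all genes. The chemokines CCL20, CXCL2 and CXCL3 were 40.1 and 15.9 TPM (log2 ratio −1.28), 48.2 and 22.8 TPM (log2 ratio −1.05) and 44.1 and 24.2 TPM (log2 ratio −0.84), and the growth factor CSF3 was 125 and 61.6 TPM (log2 ratio −1.01). Complement C3 was 1379 TPM in shCON and 811 TPM in shDDX52 (log2 ratio −0.76). Higher were IL24, IL32, with 20.5 and 45.97 TPM (log2 ratio 1.13), and LIF, with 84.9 and 151 TPM (log2 ratio 0.83). IL1B, the most abundant cytokine of the list, was 1143 and 1252 TPM.

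Interferon-stimulated genes had a median of −0.087, with 24 of 36 lower. In TPM over nuclear protein-coding genes the median was 0.03 with 14 of 36 lower, against 0.087 and 4906 of 12166 for all nuclear protein-coding genes. OASL was 5.65 and 2.76 TPM (log2 ratio −0.82) and OAS1 12.5 and 8.53 TPM (log2 ratio −0.51), while IFI6 was 13.1 and 20.5 TPM (log2 ratio 0.61) and IFITM3 535 and 661 TPM (log2 ratio 0.30). The letters GAAANNGAA of the interferon response element were in 18 of 28 promoters of this list (64.3%). They were in 8.29% of all promoters and in 6.24% of those of tested protein-coding genes. The 18 genes with a match had a median of −0.11 and the other 10 a median of −0.019. MHC class I genes had a median of 0.33, with 13 of 17 higher and 4 at least 1.5-fold higher, against 46.3% and 8.95% of all genes. HLA-B was 71.7 TPM in shCON and 126 TPM in shDDX52 (log2 ratio 0.80), the peptide transporter TAP2 was 50.3 TPM in shCON and 86.5 TPM in shDDX52 (log2 ratio 0.77), and the light chain B2M was 738 and 703 TPM. HLA genes are polymorphic and alike, so values of single HLA genes depend on the reference used.

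Immediate early genes had a median of 0.34, with 20 of 33 higher, 8 at least 1.5-fold higher and 4 lower by as much, against 46.3%, 8.95% and 9.84% of all genes. The median was 0.37 above all genes, but 0.21 with a pseudocount of 5 TPM or centred on genes of like length and GC, and 0.14 without a filter. The AP-1 subunits FOSL1 and FOSL2 were 226 TPM in shCON and 408 TPM in shDDX52 (log2 ratio 0.85) and 16.7 and 29.04 TPM (log2 ratio 0.76). NR4A1, an orphan nuclear receptor, was 4.38 and 10.7 TPM (log2 ratio 1.12). AREG, a ligand of the EGF receptor, was 44.7 TPM in shCON and 14.7 TPM in shDDX52 (log2 ratio −1.54), and HBEGF, another such ligand, was 81.5 TPM in shCON and 48.3 TPM in shDDX52 (log2 ratio −0.74). DUSP4, a phosphatase of MAP kinases, was 42.4 and 24.7 TPM (log2 ratio −0.76). Other AP-1 subunits went both ways, with JUN at 21.7 and 29.7 TPM (log2 ratio 0.44), JUNB at 175 and 128 TPM (log2 ratio −0.45) and JUND at 65.8 and 50.6 TPM (log2 ratio −0.37). In 22RV1 the list median was −0.14.

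Lysosome and autophagy genes had a median of 0.13, with 32 of 48 higher. GABARAPL1 and WIPI1, both of autophagosome formation, were 6.0 and 9.97 TPM (log2 ratio 0.65) and 17.04 and 25.7 TPM (log2 ratio 0.57). The cathepsins differed among themselves, with CTSD at 462 and 339 TPM (log2 ratio −0.44), CTSH at 86.05 and 49.01 TPM (log2 ratio −0.80) and CTSC at 334 and 435 TPM (log2 ratio 0.38).

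Log2 ratios also varied with features of the genes that no list used. Over 14150 of the 14262 genes GENCODE gave a transcript length and GC content, and protein-coding genes were divided into deciles. By median transcript length, the median log2 ratio was −0.09 in the fifth decile (861 to 993 bases) and 0.12 in the longest decile (from 3036.5 bases). By GC content it was −0.14 in the lowest decile (up to 40.42%), 0.07 in the fifth and −0.14 in the highest (from 62.44%). By mean TPM it went from 0.044 in the lowest decile to −0.12 in the highest. These spans are of the size of most list medians above. Length, GC content and level are related to each other, and TPM is itself corrected for length. Centring each gene on genes of like length and GC moved the list median relative to all genes by 0.1 or more in 3 of 36 lists. YAP and TEAD targets were then 0.53 above all genes instead of 0.69. By chromosome the medians ranged from −0.095 on chromosome 19 to 0.061 on chromosome X.

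**Figure D5:**
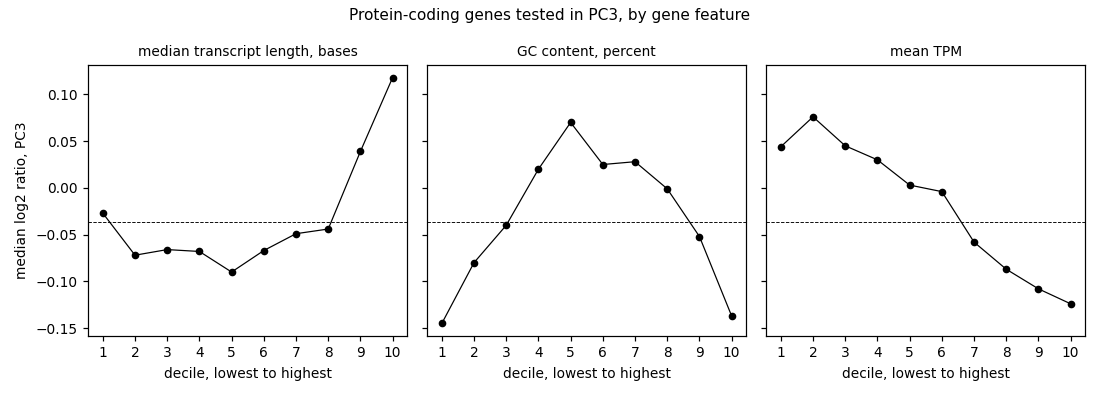
Median log2 ratio (shDDX52 against shCON, PC3) of tested protein-coding genes in deciles of median transcript length, GC content and mean TPM over both libraries, from the lowest to the highest decile. The dashed line is the median of all genes tested at −0.036, and the longest decile lies at 0.12.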

How the data were processed

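RNA from PC3 cells with shCON or shDDX52 was sequenced with 1 library per condition. The authors deposited TPM for 60671 Ensembl gene identifiers. The submitters' processing notes name CASAVA, HISAT2 and hg19, and the counting program, annotation and strand setting are not given in the sources used here. TPM keeps no depth, so precision is unknown and no test was made. Symbols came from a table of gene names, and positions, gene types, lengths and GC content from GENCODE 29 on GRCh38. They are not the authors' coordinates. Genes with at least 1 TPM in either PC3 library entered, and log2 ratios used a pseudocount of 1 TPM. The members, the 36 lists and the 7 lists of identity markers were chosen with earlier results of these data known, and the lists were written from memory. Of their 1261 symbols 1 found no identifier.

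Named genes were DDX52 and markers, the 15 protein-coding genes furthest down and 15 furthest up and 5 long noncoding genes in each direction at 5 TPM or more, the 5 largest losses and gains in TPM, up to 4 members of each list in each direction and its 2 most abundant, and 7 regulators. Named after their values were seen were the genes at the filter limit, RMRP, SPRR2D, CCN2, CCN5, ANKRD1, LATS2, AMOTL1, PTPN14, WWTR1, TEAD1, TEAD3, TEAD4, S100A10, S100A11, ANXA1, JUN, JUNB and JUND, and all genes of the closing observations. Some genes that the rule chose are not reported here. Alternatives covered pseudocount, filter, scaling and centring. Scripts were tested on simulated data. Analysis used pandas 2.3.3, numpy 2.4.6 and Python 3.11.15, and figures matplotlib 3.10.9.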

Additional observations from a re-analysis of the deposited data

Results flagged for a closer look

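In 6 of 36 lists the median relative to all genes had opposite signs in PC3 and 22RV1, at 0.1 or more in both lines. At the same limit, 9 lists had the same sign in both lines. The difference between the lines was not tested, since each condition is 1 library. Each line used the list members at 1 TPM or more in that line, so the members differ. Metallothioneins and zinc response had 6 in PC3 and 9 in 22RV1, and matrix proteases 28 and 19. For ATF4 targets and amino acid supply the median relative to all genes was 0.20 in PC3 and −0.37 in 22RV1. For glycolysis and hypoxia-responsive genes it was 0.26 and −0.11, and for fatty acid synthesis and desaturation 0.19 and −0.13. For metallothioneins and zinc response it was 0.47 and −0.19. For matrix proteases and their inhibitors it was 0.27 and −0.11, and for lysosome and autophagy genes 0.17 and −0.17. Abundant small RNAs also differed in opposite directions between the lines, for example RMRP with 50.8 and 979 TPM in the shCON and shDDX52 libraries of PC3 and 297 and 24.9 TPM in those of 22RV1, and the part of this in the list medians was not tested.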

How the results depend on the processing

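No paired analysis was possible because only 1 library represents each condition. With no replicates, a list median or a gene counted as moved when it changed by 0.1 or more, and a count when it changed by over 1.5 times. Of 251 list values under the alternatives 238 stayed within this limit, 12 moved and 1 reversed. With a pseudocount of 0.1 TPM, 847 genes were 2-fold lower and 733 higher, the log2 ratio of DDX52 was −2.10 and metallothioneins lay 0.58 above all genes. With a pseudocount of 5 TPM, 115 genes were lower and 132 higher, DDX52 was at −1.01, metallothioneins at 0.32, immediate early genes at 0.21 and YAP and TEAD targets at 0.45. With a filter of 5 TPM, 238 genes were lower and 211 higher, metallothioneins were at 0.69, MHC class I genes at 0.47 and mesenchymal genes at 0.071. Without a filter, immediate early genes were at 0.14 and matrix proteases at 0.16. The counts of 2-fold genes cannot change there, because a gene under 1 TPM cannot reach 2-fold with this pseudocount. With TPM over nuclear protein-coding genes, all other genes drop out. There 169 genes were 2-fold lower and 274 higher, against 207 and 171 nuclear protein-coding genes as deposited. In that setting small nucleolar RNA host genes went from −0.19 to 0.38, resting on the single protein-coding member SNHG32. The genes of the mitochondrial genome could not be fitted there. Centred on genes of like length and GC, metallothioneins were at 0.57, immediate early genes at 0.21 and YAP and TEAD targets at 0.53. Centring on the median of all genes moved none of its 36 list values by construction, and these are counted among the 238. The genes with the largest differences, DDX52 and the regulators of the naming rule were checked after seeing the data. These genes kept their direction in 164 values under scaling and centring, of which 62 moved. Most were chosen for large differences, so their direction could hardly turn. Of the 164 values, 58 came from centring on the median of all genes, a constant shift of 0.036 that cannot pass the limit. A pseudocount cannot turn a direction. Depth is unknown, so the error of genes with few reads could not be given.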

Other observations

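Genes of secretory epithelium outside the lists were looked up after SPDEF and both mucins had been seen, so their choice rests on those values. AGR2, a disulfide isomerase of mucin-producing cells, was 117 TPM in shCON and 33.6 TPM in shDDX52 (log2 ratio −1.77). A further gel-forming mucin gene, MUC5AC, was 3.93 TPM in shCON and 0.09 TPM in shDDX52 (log2 ratio −2.18), and the surface mucin gene MUC1 was 14 TPM in shCON and 6.21 TPM in shDDX52 (log2 ratio −1.06). The trefoil factor TFF1 was 6.89 TPM in shCON and 1.95 TPM in shDDX52 (log2 ratio −1.42), and the protease inhibitor SLPI was 1166 TPM in shCON and 535 TPM in shDDX52 (log2 ratio −1.12). The epithelial transcription factors ELF3, with 73.98 TPM in shCON and 35.4 TPM in shDDX52 (log2 ratio −1.04), and KLF5, with 17.9 TPM in shCON and 8.19 TPM in shDDX52 (log2 ratio −1.04), were lower too. Not every gene of this kind was lower, and EHF, an ETS factor related to SPDEF and ELF3, was 16.2 TPM in shCON and 14.9 TPM in shDDX52 (log2 ratio −0.11).

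Genes of the acute phase were looked up after PI3 and LCN2 had been seen. SAA1 and SAA2, serum amyloid genes that are near copies of each other, were 1243 and 1146 TPM and 175 and 169 TPM, and IL6 was 79.9 and 66 TPM (log2 ratio −0.27). Complement factor B (CFB) was 11.7 TPM in shCON and 6.45 TPM in shDDX52 (log2 ratio −0.77).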
